A study of Homo sapiens with 6 samples.

Results

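The 10 genes FOS, FOSL1, FOSL2, JUN, JUNB, JUND, EGR1, IER2, IER3 and KLF6 were followed in HCT116 cells, as the AP-1 subunits and immediate early genes of that cell line. They were matched by symbol to the 26255 gene symbols of each expression table, and all 10 were found. All 10 were also among the 12203 genes with a mean of at least 1 FPKM (fragments mapped to a gene, scaled by its transcript length and by the size of the library) over the 6 libraries, so none was lost to the filter on low values. HCT116 is a human colorectal cancer line, and 3 groups of 2 poly(A) RNA-seq libraries were compared. These were parent cells, cells given the small interfering RNA siLINC01534-1 and cells given siLINC01534-2, both directed at the long noncoding RNA LINC01534. The parent libraries are the controls. Nothing in the labels says that the parent cells were transfected, and libraries with a negative control siRNA were not analysed here, so the siRNA sequence, the transfection and the loss of LINC01534 cannot be told apart in a comparison with parent cells. The labels show 2 libraries per group where the methods of the study speak of triplicate samples, and the p-values below measure only the spread between these libraries, which may be technical.

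AP-1 is a dimer of basic leucine zipper (bZIP) proteins, in which a member of the FOS family pairs with a member of the JUN family, while JUN proteins can also pair with each other. Many of these genes, with EGR1, IER2, IER3 and KLF6, belong to the immediate early genes, which serum, growth factors and stress switch on within minutes without new protein synthesis, largely through MAP kinases acting on serum response factor and its ELK partners.

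The promoters of the members were searched for the letters that AP-1, CREB and ATF dimers, serum response factor and EGR1 are known to bind, because the members encode these factors or are known to respond to them. RefSeq promoters on GRCh38.p14 were used, each 250 bases before to 50 bases after the gene's start, and 8 of the 10 members had one in the table (FOSL1 and IER3 did not). Both strands were read. The AP-1 letters TGANTCA lay in FOSL2 and in 7.71% of all 35116 promoters. The CREB and ATF letters TGACGTCA, which hold no TGANTCA, lay in JUND and in 1.85% of promoters. The CArG box of serum response factor lay in EGR1 and in 1.29%. The EGR letters GCGNGGGCG lay in EGR1 and KLF6 and in 9.43%. A match is a description of these windows and not a bound site. Sites outside the windows, or with other letters, were not sought, so a member without a match may still hold such sites. The EGR match of EGR1 is not among the stretches shown. The 5 stretches below, each of 30 bases on the gene's own strand, carry the matched letters in capitals.
FOSL2, chr2:28392851-28392880, plus strand: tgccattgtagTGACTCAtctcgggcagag
JUND, chr19:18281804-18281833, minus strand: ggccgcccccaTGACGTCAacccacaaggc
EGR1, chr5:138465364-138465393, plus strand: gccggtcctgCCATATTAGGgcttcctgct
EGR1, chr5:138465386-138465415, plus strand: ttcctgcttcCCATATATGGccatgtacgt
KLF6, chr10:3785255-3785284, minus strand: ggggagccagGCGGGGGCGgagggggaggc

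LINC01534 itself was listed at 0.285 and 0.571 FPKM in the parent libraries, at 0 and 0.283 in the libraries labelled siLINC01534-1, and at 0.660 and 0.551 in those labelled siLINC01534-2. With a mean under 1 FPKM the gene was not tested, and at so low a level the tables cannot show whether it fell with either siRNA. Every direction below therefore refers to libraries by their labels. Between 16513 and 16903 genes were above 0 in a library, and the steps between low values put the libraries at about 8650000 to 10200000 reads. Of 9 colon epithelial markers 6 had a mean of at least 1 FPKM, and their sum ran from 3459 to 3523 FPKM in parent, 2927 to 2932 with siLINC01534-1 and 3336 to 3522 with siLINC01534-2. VIL1 and CDX1 were near 0, at no more than 0.0453 and 0.0633 FPKM in any library. The sum of 12 markers of blood, endothelial and stromal cells was 6.67 to 7.81 FPKM in parent, 10.4 to 10.5 with siLINC01534-1 and 11.1 to 12.3 with siLINC01534-2. It moved with the groups, and its part in the results was not tested. Of these 12 markers 3 had a mean of at least 1 FPKM. CD68 had means of 3.40, 3.59 and 6.14 FPKM in parent, siLINC01534-1 and siLINC01534-2. COL1A1 had 3.03, 5.45 and 4.02 FPKM in the same order, and LYZ 0.680, 1.15 and 1.38. CD68 was called higher with siLINC01534-2 and COL1A1 with siLINC01534-1. Another 4 were at 0 in all libraries, CD3E, DCN and LUM among them, and the leukocyte marker PTPRC reached at most 0.0242 FPKM. In bulk RNA, fewer cells of a type and less RNA per cell cannot be told apart.

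In parent cells the 10 genes spanned a wide range of levels per length. IER3 was highest at a mean of 261 FPKM, above 97.3% of the 12203 genes, followed by FOSL1 at 86.1, IER2 at 56.5, JUND at 39.6, JUNB at 32.1, EGR1 at 18.1, KLF6 at 15.6, FOSL2 at 9.23 and JUN at 8.05 FPKM. FOS was lowest at 2.51 FPKM, above 13.8% of genes. No neighbours in this order overlapped in the 2 parent libraries, and the order was not tested. FOS and JUN, which give the dimer its name, were therefore the 2 least abundant of the 10 transcripts before any siRNA.

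With siLINC01534-1, 8 of the 10 genes were higher than in parent cells and 0 were lower (limma on log2(FPKM + 1), adjusted p under 0.05), where 21.8% of all 12203 genes were called higher and 24.5% lower. FOSL2 and IER3 were the 2 that did not pass. With siLINC01534-2 all 10 were called higher and 0 lower, where 11.1% of all genes were called higher and 11.8% lower, although the calls of IER2 and JUND there were lost when single libraries were left out. The median log2 fold change of the 10 genes was 0.68 with siLINC01534-1 and 0.82 with siLINC01534-2, beside 0.00031 and 0.0018 over all genes tested. The largest changes were those of JUN and FOS, the only 2 members whose mean was more than 2-fold that of parent, with either siRNA. That limit was passed by 2.26% of all genes with siLINC01534-1 and by 1.29% with siLINC01534-2. Without siLINC01534-2 replicate 1, 4 members passed it with siLINC01534-2, EGR1 and FOSL2 being the added ones. Both siRNA comparisons use the same 2 parent libraries.

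**Figure D1:**
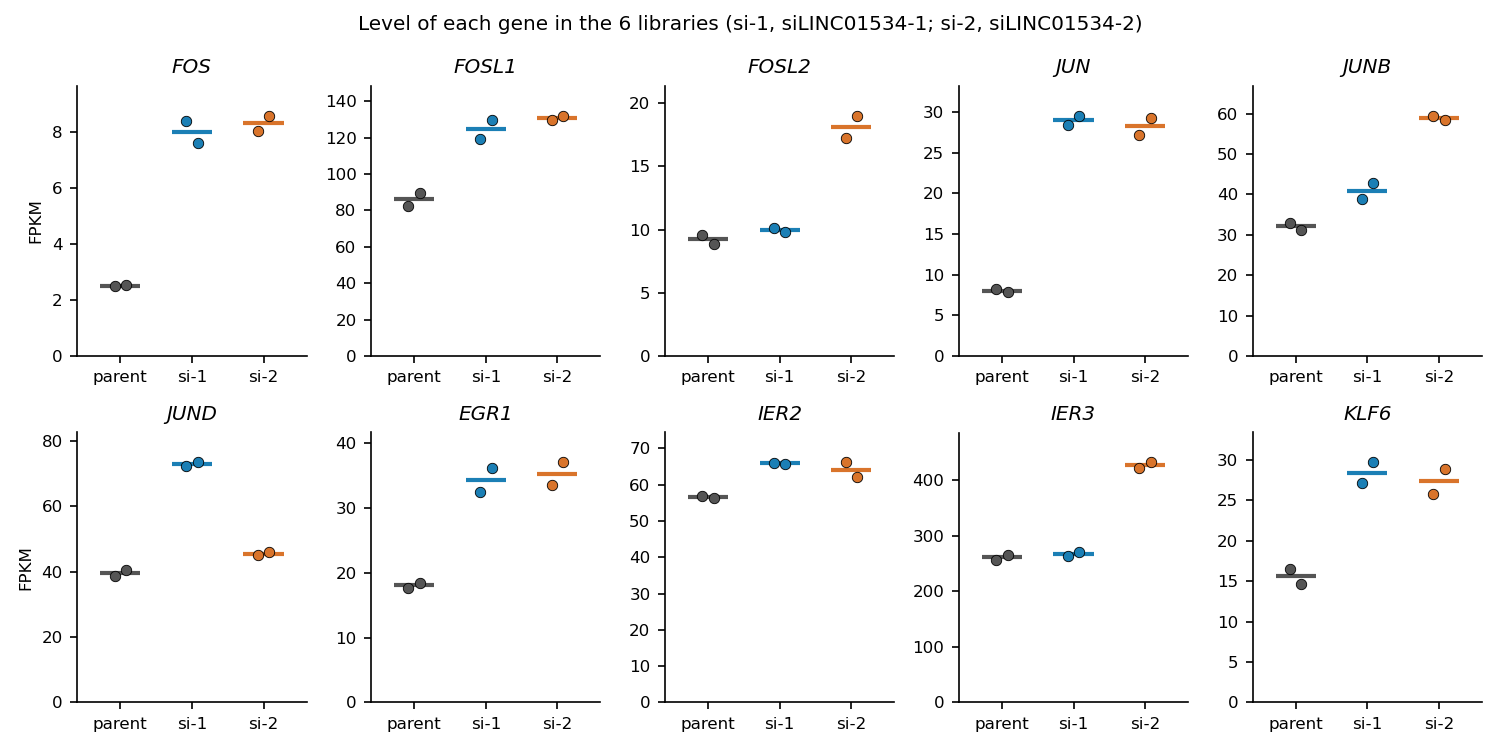
Level of each of the 10 genes in the 6 libraries, in FPKM on axes that start at 0, with a point per library and a bar at the mean of the 2 libraries of a group (si-1, siLINC01534-1; si-2, siLINC01534-2). JUN and FOS lie more than 3-fold above parent with both siRNAs, while IER3 and FOSL2 lie near parent with siLINC01534-1 (266.9 and 9.97 FPKM) and clearly above it with siLINC01534-2 (427 and 18.1 FPKM).

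Among the FOS family, FOS (14:75745529-75748933, GRCh37, plus strand) had 2.48 and 2.54 FPKM in parent, 8.40 and 7.61 in the libraries labelled siLINC01534-1, and 8.05 and 8.57 in those labelled siLINC01534-2. The 4 siRNA libraries lay well above both parent libraries and overlapped each other. FOS, the founding partner of JUN and a short-lived transcript, thus rose 3.19-fold with siLINC01534-1 (log2 fold change 1.36, SE 0.073, adjusted p = 0.000154) and 3.31-fold with siLINC01534-2 (1.41, adjusted p = 0.00058). It is the most thinly covered member, with an estimated 47 to 167 reads per library. Its log2 change on the FPKM + 1 scale understates the ratio of the means, as for any gene this low.

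FOSL1 (11:65659520-65668044, minus strand) encodes FRA1, the FOS family protein most tied to ERK signalling in epithelial tumours. Parent libraries held 82.5 and 89.6 FPKM, libraries labelled siLINC01534-1 119 and 129.6, and libraries labelled siLINC01534-2 129 and 132. Both siRNA groups were above parent and overlapped each other. It rose 1.45-fold (log2 0.53, SE 0.059, adjusted p = 0.00147) and 1.52-fold (log2 0.60, adjusted p = 0.00333). FOSL1 was the dominant FOS family transcript in every library.

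FOSL2 (2:28615315-28640184, plus strand) encodes FRA2, a FOS family protein without the strong activation domain of FOS. It stood at 9.61 and 8.85 FPKM in parent. The siLINC01534-1 libraries had 10.1 and 9.79 FPKM and the siLINC01534-2 libraries 17.2 and 19.0. Only the libraries labelled siLINC01534-2 stood clearly apart. FOSL2 rose 1.96-fold there (log2 0.90, SE 0.069, adjusted p = 0.00176). With siLINC01534-1 both libraries were above both parent libraries, which 37.5% of all genes also showed, as did 9 of the 10 members (10 of 10 with siLINC01534-2, where the share of all genes was 32.1%). The difference of 0.10 (95% interval -0.070 to 0.27, adjusted p = 0.273) did not pass. FOSL2 overlaps the antisense gene FOSL2-AS1, and whether the counting used strand is not given in the sources used here, so reads of the pair may be mixed. The TGACTCA in its promoter is among the sequences shown above.

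Of the JUN family, JUN (1:59242517-59249720, minus strand), whose protein is activated by the JNK kinases, showed the largest change of the 10 genes with both siRNAs. It had 8.18 and 7.92 FPKM in parent, 28.5 and 29.5 in the libraries labelled siLINC01534-1, and 27.2 and 29.3 in those labelled siLINC01534-2. There was no overlap with parent, and the siRNA groups overlapped each other. JUN rose 3.60-fold (log2 1.73, SE 0.053, adjusted p = 4.67e-05) and 3.51-fold (log2 1.69, adjusted p = 0.000148), changes above those of 99.4% and 99.5% of the genes tested.

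JUNB (19:12902300-12904129, plus strand) encodes a JUN protein that can restrain JUN in dimers. Parent cells had 33.0 and 31.2 FPKM of it, against 38.7 and 42.8 under siLINC01534-1 and 59.4 and 58.5 under siLINC01534-2, so the 3 groups formed separate steps. It rose 1.27-fold with siLINC01534-1 (log2 0.33, SE 0.058, adjusted p = 0.00678) and 1.84-fold with siLINC01534-2 (log2 0.86, adjusted p = 0.00133). JUNB lies within HOOK2 on the opposite strand, and the same limit on strand applies.

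JUND (19:18390504-18392432, minus strand), the most broadly expressed JUN protein, had the reverse order of steps. It was at 38.8 and 40.4 FPKM in parent. The siLINC01534-1 libraries had 72.5 and 73.4 FPKM and the siLINC01534-2 libraries 45.0 and 45.9. JUND rose 1.84-fold with siLINC01534-1 (log2 0.87, SE 0.038, adjusted p = 9.11e-05). With siLINC01534-2 it was 1.15-fold of parent (log2 0.20, adjusted p = 0.0205), and this call was lost when any of the 4 libraries compared was left out (both parent and both siLINC01534-2 libraries in turn, adjusted p = 0.0551 to 0.0924).

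The summed FPKM of the families puts these changes on one scale per length. The FOS family sum, of FOS, FOSL1 and FOSL2 without FOSB, was 97.8 ± 4.56 FPKM in parent (SD, n = 2). It was 142 ± 6.50 with siLINC01534-1 and 157 ± 3.34 with siLINC01534-2. FOSL1 made up 88.0%, 87.4% and 83.2% of it, while FOS went from 2.57% to 5.64% and 5.29%. The JUN family sum was 79.7 ± 0.264 FPKM in parent, 143 ± 4.25 with siLINC01534-1 and 133 ± 1.46 with siLINC01534-2. JUN made up 10.1% of it in parent, 20.3% with siLINC01534-1 and 21.3% with siLINC01534-2. The rest of the JUN sum differed between the siRNAs, with JUND at 51.1% and JUNB at 28.5% with siLINC01534-1 against 34.3% and 44.4% with siLINC01534-2. These shares are of transcripts and were not tested.

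**Figure D2:**
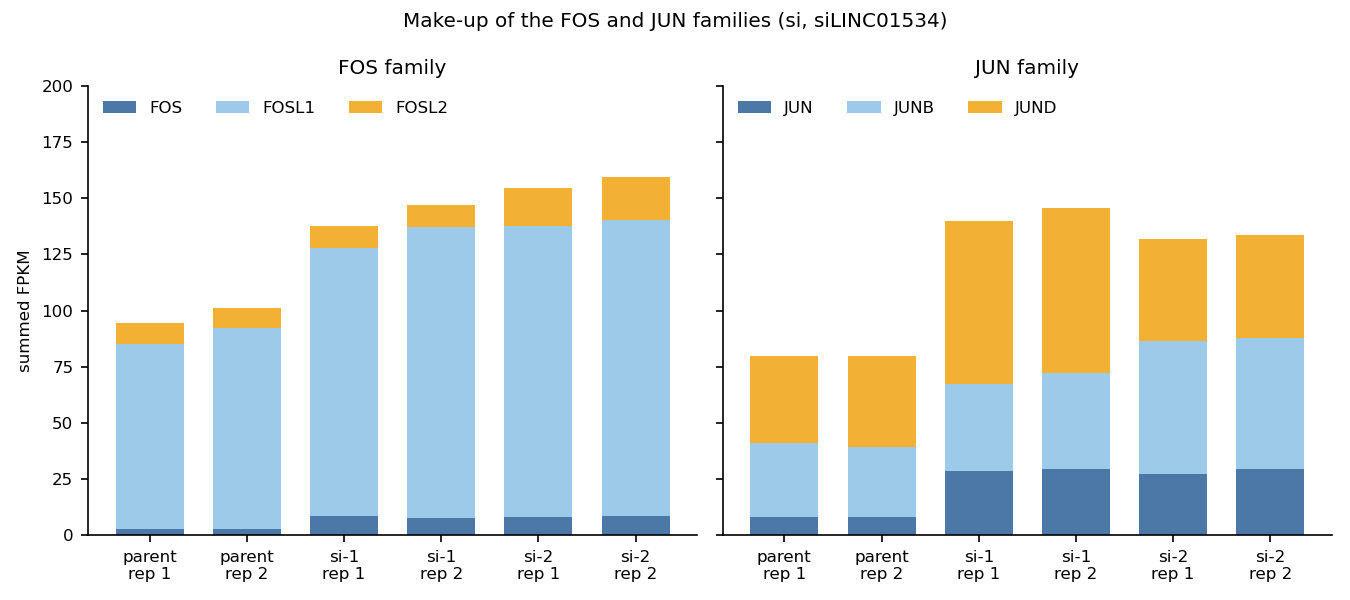
Summed FPKM of the FOS family (FOS, FOSL1, FOSL2) and the JUN family (JUN, JUNB, JUND) in each of the 6 libraries, stacked by gene from 0. FOSL1 fills most of every FOS family bar, and the JUN family bars are about equal for the siRNAs while JUND is the larger upper part with siLINC01534-1 (51.1%) and JUNB the larger middle part with siLINC01534-2 (44.4%).

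EGR1 (5:137801168-137804992, plus strand) and KLF6 (10:3818188-3827473, minus strand) are zinc finger transcription factors that bind GC-rich DNA. EGR1 had 17.7 and 18.4 FPKM in parent, 32.5 and 36.1 in the libraries labelled siLINC01534-1, and 33.5 and 37.0 in those labelled siLINC01534-2. KLF6 had 16.4 and 14.7, 27.1 and 29.7, and 25.7 and 28.9 FPKM in the same order. For both genes the siRNA groups overlapped each other and neither overlapped parent. EGR1 rose 1.90-fold (log2 0.89, SE 0.072, adjusted p = 0.000523) and 1.95-fold (log2 0.93, adjusted p = 0.00182). KLF6 rose 1.82-fold (log2 0.83, SE 0.085, adjusted p = 0.00113) and 1.75-fold (log2 0.77, adjusted p = 0.00459).

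IER2 (19:13261225-13265725, plus strand) encodes a small nuclear protein of the immediate early class, and it moved least among the called genes. It had 56.8 and 56.2 FPKM in parent. The siLINC01534-1 libraries had 66.1 and 65.7 FPKM and the siLINC01534-2 libraries 66.1 and 62.2. All siRNA libraries were above both parent libraries, by a small margin. IER2 rose 1.17-fold with siLINC01534-1 (log2 0.22, SE 0.041, adjusted p = 0.00872). Its 1.14-fold difference with siLINC01534-2 (log2 0.18, adjusted p = 0.0323) was not held when any one of the 6 libraries was left out (adjusted p = 0.0505 to 0.127), nor without the trend (0.0658) or with only the 4 libraries compared (0.0614).

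IER3 (6:30710976-30712325, minus strand) encodes a stress-induced regulator of cell survival. Its levels were 256 and 266 FPKM in parent, 263 and 271 in the libraries labelled siLINC01534-1, and 422 and 432 in those labelled siLINC01534-2. The libraries labelled siLINC01534-1 overlapped parent, and those labelled siLINC01534-2 stood far above all others. IER3 rose 1.63-fold with siLINC01534-2 (log2 0.71, SE 0.036, adjusted p = 0.00058), while with siLINC01534-1 the difference was 0.03 (95% interval -0.059 to 0.12, adjusted p = 0.51). IER2 and IER3 also overlap antisense genes, IER3-AS1 in the case of IER3, with the limit on strand given for FOSL2.

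**Figure D3:**
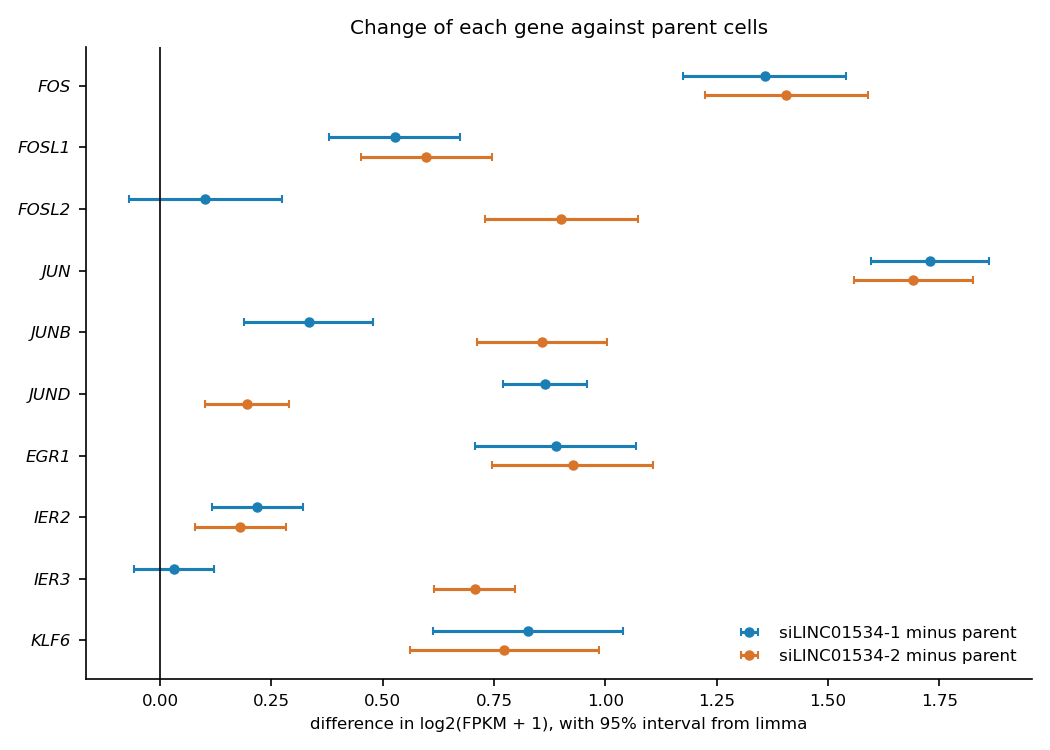
Difference of each gene from parent in log2(FPKM + 1), as a point with its 95% interval from limma, for siLINC01534-1 and siLINC01534-2. The intervals of FOSL2 and IER3 with siLINC01534-1 include 0 (0.10 and 0.03), and JUN and FOS lie farthest to the right (1.73 and 1.36 with siLINC01534-1).

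Taking each gene alone, an exact permutation test set the 4 siRNA libraries against the 2 parent libraries, with 15 splits. Its two-sided p is that of a single direction doubled, and computed so it cannot fall below 0.133. That value was reached by 9 of the 10 genes, IER3 being the exception at 0.267. The share of all genes that reach it was not counted, so nothing is read from the 9. The split also pools both siRNAs as if they were the same treatment. Replicates were close: the median gene tested differed by 0.073 to 0.076 on the log2 scale between the 2 libraries of a group, and the member that differed most did so by 0.16.

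The direct comparison of the siRNAs separates the 10 genes into those that differed and those for which no difference was detected. JUND was higher with siLINC01534-1, and FOSL2, JUNB and IER3 were lower, where 19.5% of all genes were called higher and 22.3% lower. The difference, siLINC01534-1 minus siLINC01534-2, was 0.67 for JUND (SE 0.038, adjusted p = 0.000265), -0.80 for FOSL2 (SE 0.069, adjusted p = 0.00082), -0.52 for JUNB (SE 0.058, adjusted p = 0.0018) and -0.68 for IER3 (SE 0.036, adjusted p = 0.000253). None of these reached 2-fold between the means, a limit that 1.38% of all genes passed upward and 2.94% downward. The 6 others did not pass, and their intervals bound the difference without showing that the siRNAs act alike. These were FOS at -0.05 (95% interval -0.23 to 0.13), FOSL1 at -0.07 (-0.22 to 0.076), JUN at 0.04 (-0.096 to 0.17), EGR1 at -0.04 (-0.22 to 0.14), IER2 at 0.04 (-0.064 to 0.14) and KLF6 at 0.05 (-0.16 to 0.27). The sign of the difference for FOS, JUN, EGR1, IER2 and KLF6 turned when single siRNA libraries were left out. The median over the 10 genes was -0.04, beside 0.00024 over all genes, and became 0.012 without siLINC01534-1 replicate 1.

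Because an siRNA can also act on transcripts that match bases 2 to 8 of its guide strand, the 3′ UTRs of the members were read for the complement of these letters. For siLINC01534-1 the letters are GAATAAA, which hold the AATAAA of the polyadenylation signal and lay in 26.4% of 10592 genes (2798). FOSL1 and FOSL2 had them, 2 of the 10 members. FOSL1 was higher with this siRNA and FOSL2 did not pass. For siLINC01534-2 the letters are TTCGAGT, which lay in 1.87% of genes (198) and in 0 members. The FOSL1 and FOSL2 matches are shown because FOSL1 passed the test with siLINC01534-1 and FOSL2 did not. Both are on GRCh37, on the strand of the gene, with the letters in capitals, and begin at position 644 of 837 in the 3′ UTR of FOSL1 and at position 4842 of 4869 in that of FOSL2.
FOSL1, chr11:65659696-65659724, minus strand: ctaccaaaatgGAATAAAaggcttgaagc
FOSL2, chr2:28640146-28640174, plus strand: agcattttgtaGAATAAAatgaattaaga

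For the 4 members whose values ranged over more than 1 on the log2 scale, the gene of most similar course over the 6 libraries was sought among 6882 genes with a mean of at least 10 FPKM. Likeness was the root mean square distance of the centred log2 values. The nearest to FOS was DDIT4 (distance 0.028), a stress-induced inhibitor of mTORC1, with means of 37.7, 98.8 and 103 FPKM in parent, siLINC01534-1 and siLINC01534-2. The log2(FPKM + 1) scale shrinks the change of FOS, which is at a low level, more than that of DDIT4. Their likeness is therefore one on that scale and not in the ratios of the means. Nearest to JUN was TRIML2 (0.080), with 7.07, 24.3 and 22.3 FPKM. EGR1 was most like PMAIP1 (0.024), which encodes the BH3-only protein NOXA, at 34.2, 62.9 and 64.6 FPKM. FOSL2 was most like FAM84B (0.067), at 8.89, 9.51 and 16.7 FPKM, so that it too was near parent with siLINC01534-1.

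In the lists that follow, counts are read against the shares of all genes, 21.8% higher and 24.5% lower with siLINC01534-1 and 11.1% higher and 11.8% lower with siLINC01534-2. The other bZIP proteins that pair with JUN or FOS are 11 genes, of which 9 were tested. With siLINC01534-1, 5 were called higher and 1 lower (median log2 change 0.44). With siLINC01534-2, 8 were higher and 0 lower (0.40). ATF3, a stress-induced partner of JUN, rose from 12.5 ± 0.807 FPKM (SD, n = 2) to 61.4 ± 1.15 with siLINC01534-1 and 48.2 ± 4.27 with siLINC01534-2 (log2 2.22 and 1.87, SE 0.074). MAFF, a small MAF protein without an activation domain, rose from 5.88 ± 0.848 to 15.5 ± 0.167 and 16.5 ± 1.07 FPKM (log2 1.27 and 1.35, SE 0.095). FOSB, the fourth FOS family gene, rose from 0.903 ± 0.138 to 2.25 ± 0.0172 and 3.13 ± 0.301 FPKM (log2 0.77 and 1.12, SE 0.11). The log2 change of ATF3 was above that of each of the 10 genes with either siRNA, again without a test between genes. BATF3 was the gene called lower with siLINC01534-1, named here after its values were seen.

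Of 24 other immediate early genes 20 were tested. There were 15 called higher and 1 lower with siLINC01534-1 (median 0.68), and 13 higher and 0 lower with siLINC01534-2 (median 0.39). The orphan nuclear receptor NR4A2 rose from 2.89 ± 0.247 to 9.96 ± 0.134 and 10.8 ± 1.19 FPKM (log2 1.50 and 1.60, SE 0.090). Its relative NR4A1 rose from 8.79 ± 1.20 to 21.1 ± 0.312 and 23.8 ± 1.07 FPKM (log2 1.18 and 1.35, SE 0.090). KLF4, a zinc finger factor of the same family as KLF6, rose from 5.35 ± 0.579 to 15.1 ± 0.608 and 14.1 ± 1.38 FPKM (log2 1.35 and 1.25, SE 0.094). The log2 changes of all 3 were above those of EGR1 and KLF6 with either siRNA, a difference between genes that was not tested. PHLDA1, the only gene of the list with opposite calls, fell by 0.62 with siLINC01534-1 (SE 0.047) and was 0.23 higher with siLINC01534-2, a call lost without either parent or either siLINC01534-2 library (adjusted p = 0.0619 to 0.107).

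Upstream of these genes, EGF family ligands and receptors numbered 12, with 7 tested. Each siRNA gave 3 called higher, and lower calls numbered 3 with siLINC01534-1 and 1 with siLINC01534-2 (medians 0.18 and 0.27). Of all genes, 21.8% were called higher and 24.5% lower with siLINC01534-1, and 11.1% and 11.8% with siLINC01534-2. The counts among the 7 are above these shares. With so few genes tested, nothing is read from them about the list. The EGF receptor ligand EREG rose from 139 ± 6.42 to 266.7 ± 7.61 and 213 ± 8.40 FPKM (log2 0.94 and 0.62, SE 0.050). AREG, another such ligand, went from 4.63 ± 1.06 to 8.97 ± 0.844 and 8.12 ± 1.17 FPKM (log2 0.83 and 0.70, SE 0.16). Its call was lost without siLINC01534-1 replicate 1 in the first comparison (adjusted p = 0.0599) and without any single library except parent replicate 2 in the second (0.0604 to 0.136). The receptor ERBB2 fell by 0.33 and 0.27 on the log2 scale (SE 0.039), the latter not holding without parent replicate 1 (adjusted p = 0.0533) or replicate 2 (0.0558).

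Of 25 genes of the MAP kinase cascades 24 were tested, with 7 called higher and 5 lower with siLINC01534-1 (median -0.03) and 2 higher and 2 lower with siLINC01534-2 (median 0.02). With siLINC01534-1 these counts are near the background of 21.8% higher and 24.5% lower over all genes, and with siLINC01534-2 they are under its 11.1% and 11.8%. The largest rise with siLINC01534-1 was that of MAPK8, the JUN kinase JNK1, named after its values were seen. It went from 7.59 ± 0.797 to 11.2 ± 0.595 FPKM (log2 0.51, SE 0.096, adjusted p = 0.00876), a call lost without siLINC01534-1 replicate 2 (adjusted p = 0.054), and had 8.37 ± 0.807 FPKM with siLINC01534-2 (0.13, adjusted p = 0.391). MAP2K3, a kinase that activates p38, rose by 0.36 and 0.29 (SE 0.046), the second call being lost without parent replicate 1 (adjusted p = 0.0572) or siLINC01534-2 replicate 1 (0.06). HRAS was lower by 0.49 with siLINC01534-1 (SE 0.053), and RPS6KA1, which encodes the ERK-activated kinase RSK1, by 0.27 (SE 0.037). With siLINC01534-2 these were at -0.20 and -0.14, and those calls were lost when single libraries were left out, any of the 6 for RPS6KA1 (adjusted p = 0.0766 to 0.158) and any but siLINC01534-2 replicate 1 for HRAS (0.0761 to 0.159). MAP2K1, the ERK-activating kinase MEK1, had opposite calls at -0.15 and 0.15 (SE 0.040). The first was lost without any one of the 4 libraries compared (adjusted p = 0.0603 to 0.125) and the second without any one of the 6 (0.0734 to 0.175).

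Serum response factor, its cofactors and CREB were 9 genes with 8 tested, of which 2 were called higher with siLINC01534-1 (median -0.04) and 3 with siLINC01534-2 (median 0.10), with 0 lower. The 2 of 8 with siLINC01534-1 are near the 21.8% of all genes called higher, and the share of all genes with siLINC01534-2 was 11.1%. ELK3 and ELK4, partners of serum response factor at CArG boxes such as those of EGR1 shown above, were higher with both. ELK3 had 13.6 ± 2.26 FPKM in parent, 20.4 ± 0.896 with siLINC01534-1 and 24.0 ± 1.08 with siLINC01534-2 (log2 0.56 and 0.79, SE 0.11). Its calls were lost without siLINC01534-1 replicate 2 (adjusted p = 0.0589) and without siLINC01534-2 replicate 1 (0.0518). ELK4 had 9.05 ± 0.330, 12.1 ± 0.332 and 11.9 ± 0.502 FPKM (log2 0.39 and 0.36, SE 0.057), with the second call lost without either parent library (adjusted p = 0.0518 and 0.0679) or siLINC01534-2 replicate 2 (0.0653).

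Feedback inhibitors of the pathway include phosphatases of the MAP kinases (DUSP), SPRY and SPRED proteins, and ZFP36 proteins that destabilise AU-rich transcripts such as FOS. Of 16 genes 15 were tested, with 8 called higher and 3 lower with siLINC01534-1 (median 0.40) and 10 higher and 0 lower with siLINC01534-2 (median 0.51). DUSP8, a phosphatase of JNK and p38, rose from 2.01 ± 0.0450 to 6.49 ± 0.101 and 5.59 ± 0.265 FPKM (log2 1.32 and 1.13, SE 0.069). ZFP36 rose from 21.3 ± 0.408 to 39.2 ± 0.0364 and 47.9 ± 2.27 FPKM (log2 0.85 and 1.13, SE 0.046). DUSP5, a nuclear phosphatase of ERK, rose from 54.3 ± 0.385 to 104.7 ± 1.11 and 104.8 ± 0.441 FPKM (log2 0.93 and 0.94, SE 0.031). DUSP2 had opposite calls at -0.17 and 0.20 (SE 0.053), which did not hold without any one of the 6 libraries (adjusted p = 0.061 to 0.172 and 0.0676 to 0.169). DUSP6, the cytoplasmic ERK phosphatase, was named after its values were seen, since it went the other way from DUSP5. It had 35.3 ± 2.17 FPKM in parent and fell by 1.03 to 16.8 ± 0.0765 FPKM with siLINC01534-1 (SE 0.051, adjusted p = 0.000133), and had 30.8 ± 0.0612 FPKM with siLINC01534-2 (-0.19, adjusted p = 0.0503, and 0.0492 with a pseudocount of 0.1 or 0.0372 over genes with a mean of at least 5 FPKM).

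Of the genes for the turnover of JUN and FOS proteins all 10 were tested, with 2 called higher and 2 lower with siLINC01534-1 (median -0.01) and 0 higher and 1 lower with siLINC01534-2 (median 0.0047). These counts are near the 21.8% and 24.5% of all genes with siLINC01534-1 and near or under the 11.1% and 11.8% with siLINC01534-2. RFWD2, also called COP1, encodes a ubiquitin ligase for JUN and was likewise named after its values were seen. It fell by 0.66 with siLINC01534-1 (SE 0.087, adjusted p = 0.00258), from 13.3 ± 0.118 to 8.05 ± 1.10 FPKM, and stood at 15.4 ± 0.307 FPKM with siLINC01534-2 (0.20, adjusted p = 0.162). CUL4A was also called lower with siLINC01534-1, while DET1 and FBXW7 were called higher. FBXW7 went from 9.46 ± 0.889 to 13.4 ± 1.20 FPKM there, and DET1 from 1.72 ± 0.101 to 2.85 ± 0.462. The list thus went both ways.

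Known AP-1 target genes numbered 19, with 12 tested. Those not tested were MMP1, MMP3, MMP7, MMP9, MMP10, MMP13 and IL6, each with a mean under 1 FPKM. With siLINC01534-1, 8 were called higher and 2 lower (median 0.28), and with siLINC01534-2, 6 were higher and 0 lower (median 0.24). The 2 called lower were HMGA1 and MT2A. MT2A, named after its values were seen, went from 612 ± 11.2 to 364 ± 30.4 FPKM with siLINC01534-1. CXCL8, the neutrophil chemokine, rose from 1.26 ± 0.189 to 17.1 ± 0.0294 and 20.4 ± 2.12 FPKM (log2 3.01 and 3.24, SE 0.093). PLAUR, the urokinase receptor, rose from 16.9 ± 1.86 to 33.5 ± 0.347 and 35.9 ± 3.72 FPKM (log2 0.95 and 1.04, SE 0.096). HMGA1, an architectural chromatin protein, went the other way with siLINC01534-1, falling from 1067 ± 27.2 to 605 ± 6.40 FPKM, a log2 change of -0.82 (SE 0.037, adjusted p = 0.000103). With siLINC01534-2 it had 1178 ± 30.5 FPKM (0.14), and that call was lost without any one of the 6 libraries (adjusted p = 0.0855 to 0.169).

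**Figure D4:**
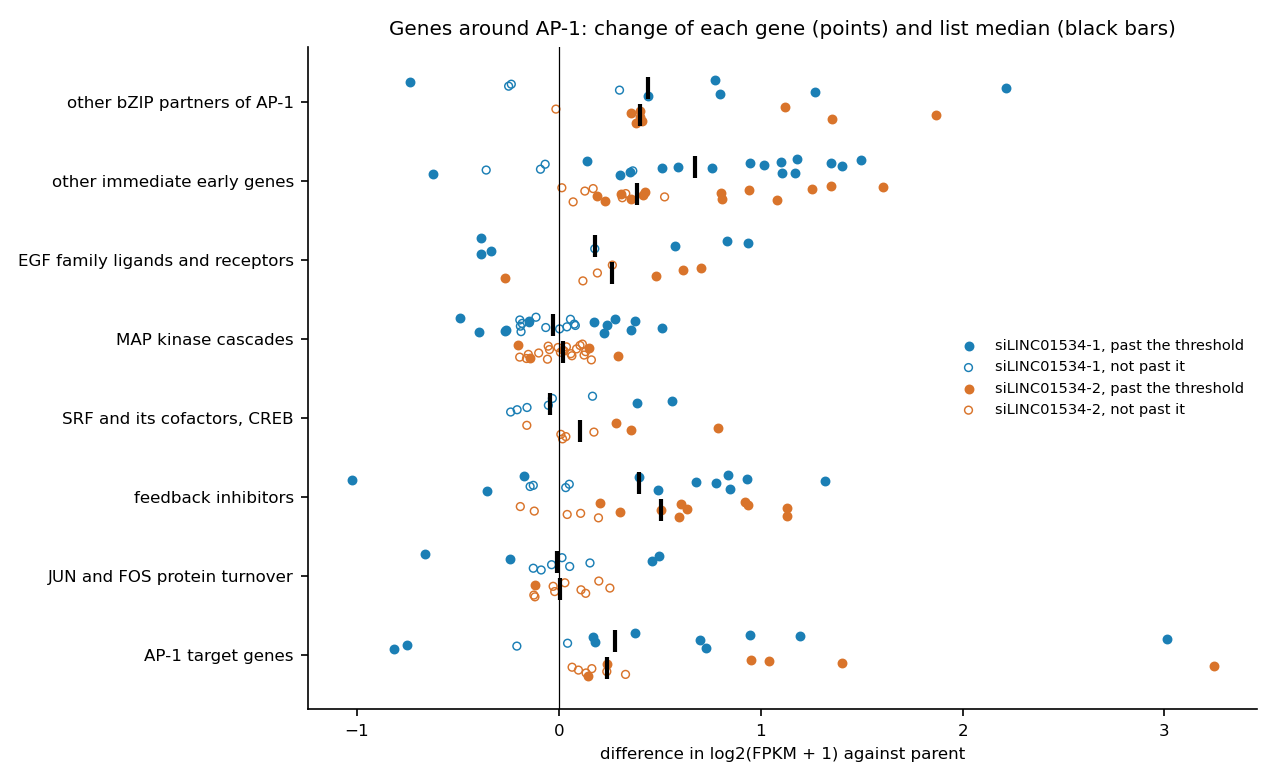
Difference from parent in log2(FPKM + 1) of each tested gene in the 8 lists around AP-1, filled where the adjusted p passed 0.05, with a black bar at each list's median, for siLINC01534-1 (blue) and siLINC01534-2 (orange). The bars of bZIP partners, other immediate early genes, feedback inhibitors and AP-1 targets lie right of 0 (0.24 to 0.68), and those of the MAP kinase cascades and of protein turnover lie between -0.03 and 0.02. Those of the EGF family are at 0.18 and 0.27, and those of serum response factor, its cofactors and CREB at -0.04 and 0.10.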

How the data were processed

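RNA of 6 HCT116 cultures was measured by strand-specific poly(A) RNA-seq with 75-nt single-end reads. The submitters' processing notes name TopHat2 2.0.13, Bowtie2 2.2.3, SAMtools 0.1.19, Cufflinks 2.2.1 and the build hg19. The authors deposited FPKM per gene symbol from Cuffnorm, one table per library. The annotation and the use of strand in counting are not given in the sources used here. The RNA kit of the labels differs from that of the methods.

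The deposited values were taken to log2(FPKM + 1), and the 12203 genes whose mean over the 6 libraries was at least 1 FPKM entered the test, made with limma 3.58.1 in R 4.3.3 (lmFit, contrasts.fit, eBayes with a trend). One mean per group was fitted without covariates, all 6 libraries shared the spread, tests were two-sided, and p-values were adjusted by Benjamini-Hochberg over all genes tested, with a threshold of 0.05. Groups came from the labels. On simulated data with 200 of 12203 genes changed by 1 log2 unit between siLINC01534-1 and parent, 197 were recovered and 6 unchanged genes were called. Tables hold no counts, so reads per library were estimated from the value of 1 read in genes with 1 transcript, after taking 200 nt off the length, as the median of 72 to 94 genes. Such estimates cover counting error only. Gene positions are from GENCODE on GRCh37, and matches to 3′ UTRs used the canonical coding transcript.

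Named genes were all 10 members and, from each other list, the 3 genes with the largest mean change among those called in the same direction with both siRNAs, plus genes with opposite calls. One gene that this rule names is not reported here. For a member that ranged over more than 1 log2 unit, the gene most like it was also named. The members and lists were chosen with earlier results of these data known. The lists are described by counts and medians without a test. Alternatives were a pseudocount of 0.1, no filter, a mean of at least 5 FPKM, median ratio rescaling, a replicate block, no trend, only the 4 libraries compared, and each library left out.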

Additional observations from a re-analysis of the deposited data

Results flagged for a closer look

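The response to the siRNAs differed for 4 of the 10 genes in the direct test of siLINC01534-1 against siLINC01534-2 with limma, where 19.5% of all genes were called higher and 22.3% lower, so a count of 4 is near that background. FOSL2 differed by -0.80 on the log2 scale (siLINC01534-1 minus siLINC01534-2). JUNB differed by -0.524 in the same sense. IER3 differed by -0.675, with the siLINC01534-1 libraries overlapping parent. JUND differed by 0.67, the only one of the 4 that was higher with siLINC01534-1.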

How the results depend on the processing

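The 8 higher calls with siLINC01534-1, and the 1 higher and 3 lower calls of siLINC01534-1 against siLINC01534-2, kept their counts under all alternatives run. The count of 10 with siLINC01534-2 became 8 or 9 in those that cost IER2 or JUND its call, as given with those genes. Replicate numbers were not taken as pairs, since deviations of same-numbered libraries correlated at 0.11, 0.027 and -0.046. The replicate block left 8 and 9 members higher, and over all genes 2376 higher and 2738 lower with siLINC01534-1 and 988 and 1005 with siLINC01534-2, against 2662, 2992, 1351 and 1437 without it. The block ended 1 call of a member, IER2 with siLINC01534-2 (adjusted p = 0.0539). Of the other named genes it ended the calls of MAP2K1 (0.0578) and DUSP2 (0.0516) with siLINC01534-1, and of HRAS (0.0808), RPS6KA1 (0.0846), MAP2K1 (0.0931), DUSP2 (0.0608) and HMGA1 (0.0957) with siLINC01534-2.

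Leaving out a library moved the median of the 10 genes with siLINC01534-1 over 0.62 to 0.73. It moved the genes called with siLINC01534-2 over 491 to 1000 higher and 443 to 1065 lower, and siLINC01534-1 against siLINC01534-2 over 1362 to 2128 higher, where a lone library was assumed to vary like the other groups. Between 2 and 4 members passed 2-fold with siLINC01534-2, EGR1 and FOSL2 joining without siLINC01534-2 replicate 1. Uncalled differences between the siRNAs crossed 0, from -0.11 to 0.015 for FOS, -0.015 to 0.088 for JUN, -0.11 to 0.035 for EGR1, -0.00504 to 0.082 for IER2 and -0.027 to 0.13 for KLF6. With siLINC01534-2 the uncalled difference of BATF3 from parent ran from -0.097 to 0.068 as single libraries were left out. Rescaling factors were 1.003 to 1.008. About 47 reads of FOS per parent library limit its precision.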
